A study of Mus musculus with 12 samples.

Results

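The genes described here are 39 mouse genes that mark B cells or carry signals from the B cell antigen receptor. They were taken from a list of names that was chosen with earlier results of these data known. Each was represented by the probe set with the highest mean over the 12 arrays of the study. Of the 39 genes, 37 were measured, out of 18193 genes on the array with a probe set of a single gene symbol. Cd38 and Lyn were not analysed here.

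On a B cell, membrane immunoglobulin sits beside the signalling chains CD79A and CD79B. When antigen engages it, SRC family kinases such as BLK phosphorylate these chains, the kinase SYK docks on them, and the adaptor BLNK gathers BTK and PLCG2, which open the calcium and protein kinase C branches. CD22, CD72 and SIGLECG recruit phosphatases that damp the signal, whereas complement receptor 2 strengthens it. PAX5, EBF1, SPIB and the octamer factors with their coactivator POU2AF1 set up and hold this programme. Mature T cells use the related kinase ZAP70 and the adaptors LAT and SLP-76 instead, and transcribe most of these B cell genes little or not at all.

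The 12 arrays covered 4 groups of 3, all from C57BL/10.RIII mice, under a title that names FoxA1, a forkhead transcription factor, and EAE, a mouse model of multiple sclerosis. EncT are encephalitogenic T cells, the cells that drive the disease, labelled CD4+. Treg are labelled CD4+,TGFbeta+. nFoxA1Treg are titled as neuron induced and given the cell type natural FoxA1Treg, and iFoxA1Treg are titled as IFN-beta induced and given the cell type induced FoxA1Treg; both carry the surface markers CD4hi,PD-L1hi. No age, dose or time was used here. Nothing in the labels says that the 3 arrays of a group came from separate animals or cultures, so the tests rest on the spread between these arrays alone, which may be technical.

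The profiles labelled iFoxA1Treg were unlike the other 9 and went against their CD4 label. Their correlation with the other arrays over the deposited log2 values ran from 0.683 to 0.739, whereas arrays of the other 3 groups correlated with each other at 0.815 to 0.847. Cd4 had a log2 level of 4.24 ± 0.10 (SD, n = 3) on them. It was 10.57 ± 0.017 in EncT, 10.39 ± 0.057 in Treg and 10.44 ± 0.068 in nFoxA1Treg. Cd3e, a chain of the T cell receptor complex, was at 7.83 there and between 10.58 and 10.73 elsewhere. For this reason these 3 arrays are called the arrays labelled iFoxA1Treg throughout, and EncT, nFoxA1Treg and Treg are called the T cell groups.

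Promoter sequence was available from RefSeq (build GRCm38.p6) for 30 of the 37 genes, as the 250 bases before each annotated start. They are shown because most of these genes were high together on the same 3 arrays, and because POU2F2, EBF1 and SPIB, whose motifs are among those searched, are encoded by genes of the list. 4 motifs were searched, each on both strands. The octamer ATGCAAAT, bound by POU2F2 with POU2AF1, was present in the windows of 2 of 30 genes, Blnk and Vpreb3 (6.67%, against 1.81% of the 27025 genes with a window). The palindrome of EBF1, TCCC and GGGA with any 2 bases between them, was present in 1, Cd22 (3.33% against 0.914%). GAGGAAGT, a site of the ETS factors PU.1 and SPIB, was present in 3, Cd37, Cd72 and Fcrl1 (10.0% against 2.79%). CAGCTG, an E-box that is its own reverse complement, was present in 3, Faim3, Fcer2a and Tnfrsf13c (10.0% against 14.7%). No matches of different motifs overlapped in a shown window. A match is a description of these letters only. In the sequences below, read 5′ to 3′ on the gene's strand, capitals mark the match, and Cd79a is shown as a window of a receptor gene that held none of the 4.
Vpreb3, chr10:75948050-75948299, plus strand, octamer starting 45 bases before the start: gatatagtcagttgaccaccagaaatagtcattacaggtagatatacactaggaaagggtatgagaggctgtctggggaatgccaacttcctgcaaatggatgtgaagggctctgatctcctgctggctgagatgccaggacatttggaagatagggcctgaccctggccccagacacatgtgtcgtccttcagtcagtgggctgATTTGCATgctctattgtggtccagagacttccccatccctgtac
Blnk, chr19:40994222-40994471, minus strand, octamer starting 130 bases before the start: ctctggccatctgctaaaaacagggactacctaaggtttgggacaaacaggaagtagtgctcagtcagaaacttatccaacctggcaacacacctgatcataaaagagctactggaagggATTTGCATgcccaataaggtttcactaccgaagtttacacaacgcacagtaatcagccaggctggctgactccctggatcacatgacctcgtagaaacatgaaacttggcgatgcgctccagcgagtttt
Cd22, chr7:30879029-30879278, minus strand, EBF1 palindrome starting 49 bases before the start: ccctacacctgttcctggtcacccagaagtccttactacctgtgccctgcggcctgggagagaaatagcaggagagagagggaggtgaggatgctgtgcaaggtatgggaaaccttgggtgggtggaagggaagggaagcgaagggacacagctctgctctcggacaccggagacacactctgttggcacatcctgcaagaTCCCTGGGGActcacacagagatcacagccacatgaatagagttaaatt
Cd72, chr4:43454627-43454876, minus strand, PU.1 and SPIB site starting 49 bases before the start: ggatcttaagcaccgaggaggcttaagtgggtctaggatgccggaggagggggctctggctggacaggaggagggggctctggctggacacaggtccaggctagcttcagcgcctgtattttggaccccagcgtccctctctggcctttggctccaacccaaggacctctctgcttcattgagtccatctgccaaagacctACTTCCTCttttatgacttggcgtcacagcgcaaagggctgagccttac
Cd79a, chr7:24897247-24897496, plus strand, no match: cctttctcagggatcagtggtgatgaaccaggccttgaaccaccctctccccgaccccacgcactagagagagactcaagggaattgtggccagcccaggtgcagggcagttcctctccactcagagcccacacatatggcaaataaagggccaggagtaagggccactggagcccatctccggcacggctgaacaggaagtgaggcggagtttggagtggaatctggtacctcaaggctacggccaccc

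Nearly the whole B cell list was high on the arrays labelled iFoxA1Treg and low in the T cell groups. Levels below are given as log2(value + 16) of the normalized value, a scale on which a probe set without signal reads 4 and which understates changes of dim genes; differences and folds are on that scale too. Calls rest on limma with Benjamini-Hochberg adjustment over all genes, at an adjusted p under 0.05, on log2 values with no offset; for the arrays labelled iFoxA1Treg every adjusted p is from a fit with no gene filtered out, unless stated. Against EncT, 34 of the 37 genes were higher, 2 were lower (Bcl11a and Cd37) and 1 was not called (Tnfrsf17) when no gene was filtered out. In that fit 27.2% of the 18193 genes were higher and 29.1% lower. The count was 34 higher and 2 lower against Treg as well (28.3% and 29.4% of all genes) and against nFoxA1Treg (28% and 30.1%). These 3 comparisons share the arrays labelled iFoxA1Treg and are not independent of each other.

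The median difference of the 37 genes was 5.19 against EncT, 5.09 against Treg and 5.23 against nFoxA1Treg, where the median over all genes was 0.014, 0.010 and 0.012. For 34 genes every array labelled iFoxA1Treg lay above all 9 others, which held for 26% of all genes. The gap between the lowest of the 3 and the highest of the 9 ran from 0.49 to 6.95 with a median of 4.94. After the filter on dim probe sets, 27 genes stayed in the fit and 10 did not (Cd79a, Btk, Siglecg, Cr2, Fcrla, Pou2af1, Cd180, Ly86, Cxcr5 and Tnfrsf17). Among the 27, 7 had means below the filter level (4.05) in all T cell groups and so passed only through the arrays labelled iFoxA1Treg. Ms4a1 also passed only through them, with a mean log2 level of 3.85 over the 9 other arrays. The counts and calls of these comparisons are therefore given without the filter.

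**Figure D1:**
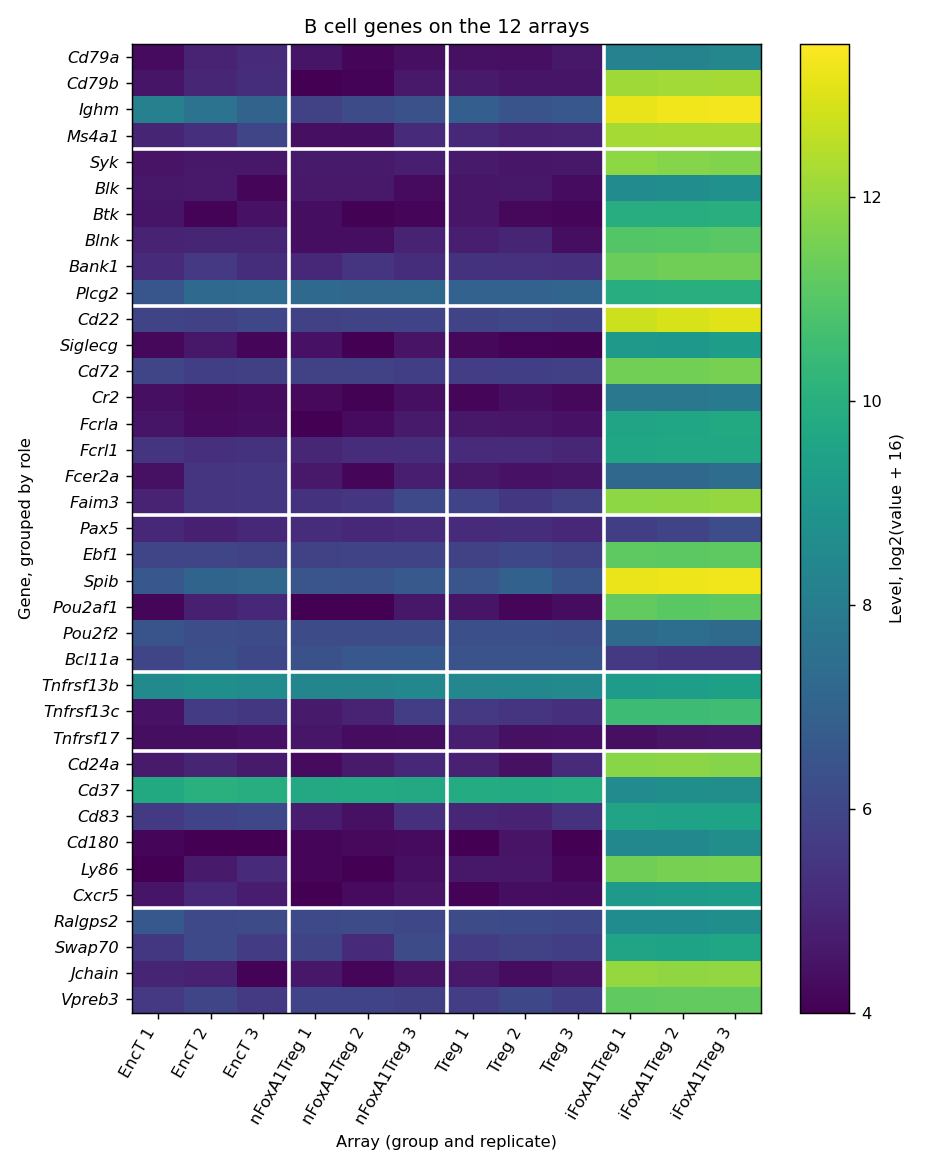
Level of each of the 37 measured B cell genes, as log2(value + 16), on each of the 12 arrays; rows are genes grouped by role, columns are arrays, and white lines separate roles and groups. Colours can be compared along a row only, since probe sets differ in brightness; 34 rows are brightest on the 3 arrays labelled iFoxA1Treg, Bcl11a and Cd37 are darkest there, and Tnfrsf17 is dark throughout.

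The receptor chains Cd79a, Cd79b and Ighm were all called higher, as was Ms4a1. Cd79b, one of the signalling chains, read 12.13, 12.18 and 12.23 on the arrays labelled iFoxA1Treg, against 4.55, 5.01 and 5.24 in EncT, 4.01, 4.09 and 4.64 in nFoxA1Treg and 4.68, 4.55 and 4.53 in Treg. The 3 arrays were high and the 9 others sat close to the no-signal level, with no overlap. The difference from EncT was 7.24 ± 0.17 (SE), a fold of 151, with an adjusted p of 0.000103. Cd79a, its partner chain, read 8.21, 8.24 and 8.39 on these arrays, and 4.27, 4.96 and 5.13 in EncT. In nFoxA1Treg it read 4.55, 4.15 and 4.38, and in Treg 4.43, 4.39 and 4.60. No value of the T cell groups came near those of the 3 high arrays, and the fold over EncT was 11.3 (adjusted p = 1.95e-05).

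Ighm, the heavy chain of membrane IgM, also had signal in the T cell groups. It read 13.19, 13.31 and 13.33 on the arrays labelled iFoxA1Treg, 8.14, 7.63 and 7.02 in EncT, 5.89, 6.16 and 6.36 in nFoxA1Treg, and 6.86, 6.48 and 6.57 in Treg. The groups did not overlap, and EncT lay above the other T cell groups. The fold of the arrays labelled iFoxA1Treg was 51.3 over EncT (adjusted p = 7.96e-10), 99.8 over Treg and 141 over nFoxA1Treg. Ms4a1, which encodes the surface marker CD20, read 12.21, 12.25 and 12.26, against 4.97, 5.31 and 6.0 in EncT, 4.40, 4.35 and 5.14 in nFoxA1Treg, and 5.08, 4.88 and 4.94 in Treg. Its fold over EncT was 112 (adjusted p = 4.3e-08), again without overlap.

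All 6 kinases and adaptors downstream of the receptor were higher too. Syk, the kinase that docks on the phosphorylated chains, read 11.89, 11.79 and 11.71 on the arrays labelled iFoxA1Treg, and its 9 other values lay between 4.50 and 4.81. That is a fold of 150 over EncT (difference 7.23 ± 0.083 SE, adjusted p = 2.16e-13). Blnk, the adaptor, read 10.95, 10.98 and 11.06, against 4.94, 4.99 and 4.98 in EncT, 4.36, 4.34 and 4.95 in nFoxA1Treg, and 4.79, 4.99 and 4.37 in Treg. The T cell groups overlapped with each other and not with the 3 high arrays. Bank1, an adaptor that links the receptor to calcium release, differed from EncT by 6.08 ± 0.11, and Btk, the TEC family kinase, by 5.57 ± 0.14. Blk, the SRC family kinase typical of B cells, differed by 4.20 ± 0.14.

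Plcg2, the phospholipase at the end of this chain, differed least among the 6, since the T cell groups also had signal. It read 9.90, 9.99 and 9.95 on the arrays labelled iFoxA1Treg, 6.54, 7.24 and 7.34 in EncT, 7.26, 7.15 and 7.16 in nFoxA1Treg, and 7.01, 6.99 and 7.09 in Treg. The fold over EncT was 7.51 (adjusted p = 1.25e-08), and the first EncT array was the lowest of the 9.

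The 8 coreceptors and Fc-receptor-like genes were all higher. Cd22, a lectin that inhibits the receptor, read 12.79, 12.92 and 13.02 on the arrays labelled iFoxA1Treg, and its 9 other values lay between 5.85 and 6.03. The T cell groups were level with each other, and the fold over EncT was 126 (difference 6.98 ± 0.070 SE, adjusted p = 8.15e-15). Cd72, another inhibitory receptor, had a fold of 50.2 over EncT, and Siglecg, a lectin related to CD22, one of 29.1. Faim3, which encodes the Fc receptor for IgM and is listed as Fcmr in the reference table, had a fold of 99.1. Fcrla and Fcrl1, Fc-receptor-like proteins of B cells, had folds of 38 and 19.

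Cr2 and Fcer2a, the receptors for complement fragments and for IgE, were higher by smaller amounts. Cr2 read 7.81, 7.82 and 7.87 on the arrays labelled iFoxA1Treg, and 4.05 to 4.40 on the others, a fold of 11.5 over EncT (adjusted p = 1.02e-05). Fcer2a read 7.18, 7.21 and 7.38, against 4.41, 5.44 and 5.49 in EncT, 4.64, 4.13 and 4.8 in nFoxA1Treg, and 4.61, 4.47 and 4.53 in Treg. In EncT the first array was about as low as the other T cell groups while the remaining pair lay higher; the fold over EncT was 4.42 (adjusted p = 0.00334).

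Among the 6 transcription factors of the B lineage, 5 were higher, with very different folds. Spib, an ETS factor, read 13.22, 13.26 and 13.28 on the arrays labelled iFoxA1Treg and 6.42 to 7.14 on the others, a fold of 80.8 over EncT (adjusted p = 1.3e-11). Pou2af1, the coactivator of octamer factors, read 11.22, 11.08 and 11.15, against 4.13, 4.84 and 5.09 in EncT, 4.0, 4.0 and 4.60 in nFoxA1Treg, and 4.55, 4.15 and 4.30 in Treg. Most of the T cell values were near the no-signal level, and the fold over EncT was 88.4 (adjusted p = 0.00645). Ebf1, which specifies the lineage, read 11.16, 11.11 and 11.13 against 5.82 to 6.04 on the other arrays, a fold of 36.4 over EncT (adjusted p = 1.19e-13).

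Pax5, which commits cells to the B lineage, differed far less. Its brightest probe set read 5.78, 5.95 and 6.24 on the arrays labelled iFoxA1Treg, 5.04, 4.82 and 5.05 in EncT, 5.22, 5.09 and 5.14 in nFoxA1Treg, and 5.14, 5.25 and 5.04 in Treg. The 3 arrays were still above all 9 others, and the fold over EncT was 2.02 (adjusted p = 2.04e-05). The second Pax5 probe set was not called against EncT (adjusted p = 0.0898). Pou2f2, an octamer factor of B cells, had a fold of 2.04 over EncT, with 2 of its 3 probe sets higher and 1 not called.

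The receptors for the survival factors BAFF and APRIL split. Tnfrsf13c, the BAFF receptor of mature B cells, read 10.50, 10.53 and 10.57 on the arrays labelled iFoxA1Treg, against 4.46, 5.69 and 5.55 in EncT, 4.68, 4.94 and 5.72 in nFoxA1Treg, and 5.58, 5.44 and 5.28 in Treg. The 9 T cell arrays were scattered and overlapped, and the fold over EncT was 39.4 (adjusted p = 1.27e-06). Tnfrsf13b, which encodes TACI, had signal everywhere: 9.21, 9.30 and 9.39 against 8.33 to 8.72 on the others, a fold of 1.63 over EncT (adjusted p = 1.16e-06). Tnfrsf17, which encodes the plasma cell receptor BCMA, was near the no-signal level on all 12 arrays, at 4.31 to 4.81. Its difference was 0.094 ± 0.11 (SE) against EncT, and it was called in none of the 3 comparisons (adjusted p = 0.507, 0.667 and 0.578 against EncT, Treg and nFoxA1Treg).

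Of the 6 other surface and homing genes, 5 were higher. Ly86, which encodes MD-1, and Cd180, which encodes its partner RP105, had folds of 119 and 22 over EncT. The call of Cd180 against nFoxA1Treg (adjusted p = 0.0358) was lost when any 1 of the 6 arrays of that comparison was left out, with an adjusted p of up to 0.0829, although the arrays did not overlap. Cd24a, the heat-stable antigen of immature and mature B cells, read 11.80, 11.85 and 11.78 against 4.29 to 5.19 on the other arrays, a fold of 131 over EncT. Cxcr5, the receptor that brings lymphocytes to follicles, read 9.10, 9.21 and 9.29, against 4.54, 5.08 and 4.77 in EncT, 4.0, 4.27 and 4.51 in nFoxA1Treg, and 4.09, 4.34 and 4.32 in Treg. It stood far above the T cell groups, with a fold of 21.1 over EncT, although on the log2 scale with no offset its call (adjusted p = 0.0266) was lost without EncT replicate 1 or 3 or without any array labelled iFoxA1Treg, with an adjusted p of up to 0.0678. Cd83, a marker of activated B cells and dendritic cells that activated T cells also make, had a fold of 12.7 over EncT.

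Jchain, which joins the subunits of secreted IgM and IgA, had the largest difference from EncT of the 37 genes on this scale, close to Cd79b and Syk. It read 11.98, 11.93 and 11.95 on the arrays labelled iFoxA1Treg, against 4.98, 4.89 and 4.08 in EncT, 4.60, 4.18 and 4.48 in nFoxA1Treg, and 4.64, 4.31 and 4.51 in Treg. The difference was 7.30 ± 0.18 (SE), a fold of 158 (adjusted p = 1.23e-06). Vpreb3, related to the surrogate light chain, read 11.20, 11.22 and 11.21 against 5.60 to 6.07 elsewhere, a fold of 44.5 over EncT. Swap70, which binds phosphoinositides downstream of the receptor, and Ralgps2, an exchange factor for RAL, were higher by 3.78 and 2.36. On the 3 arrays the replicate spread was small: the median SD of the 37 genes was 0.068 on the log2 scale, while it was 0.242 in Treg, 0.402 in EncT and 0.546 in nFoxA1Treg, where about as many genes lay below the filter level (18 in EncT, 19 in nFoxA1Treg and 18 in Treg) as above it.

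**Figure D2:**
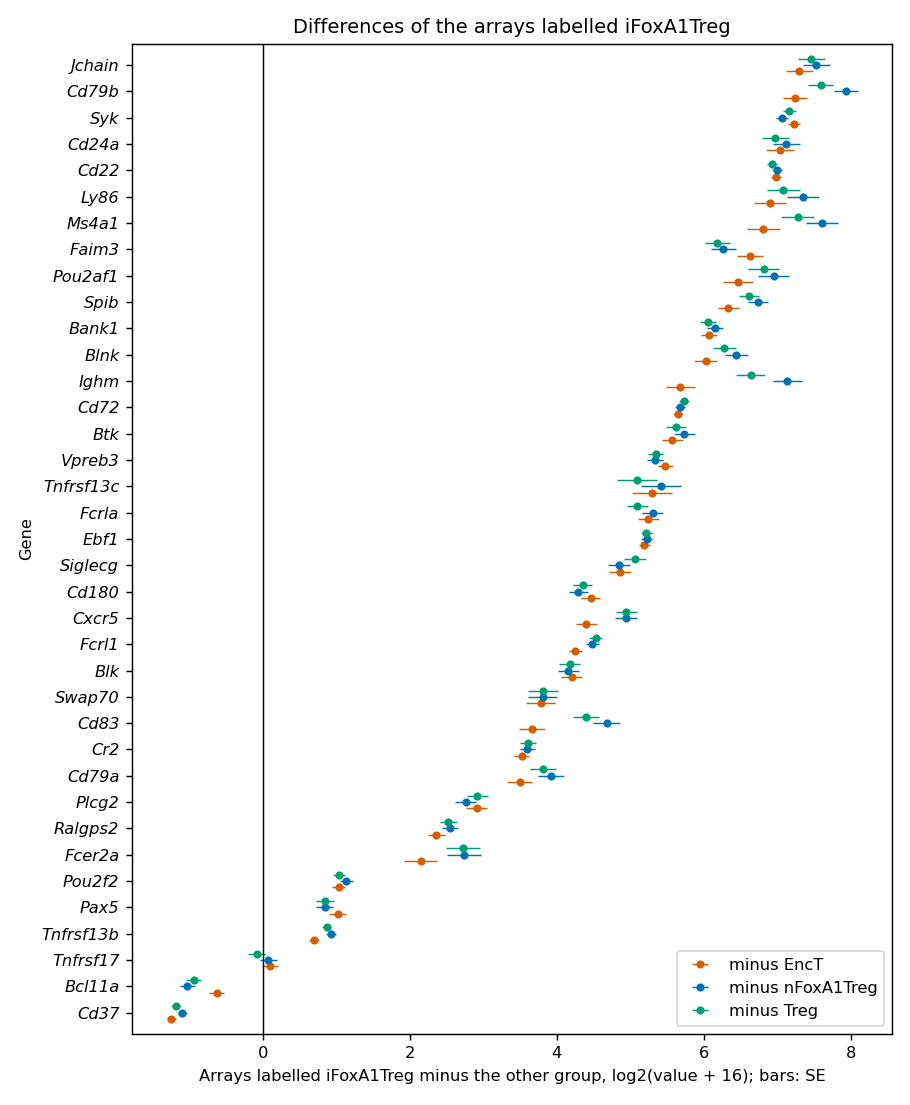
Difference of the arrays labelled iFoxA1Treg from each T cell group, on the log2(value + 16) scale, for the 37 genes, sorted by the difference from EncT; points are differences of group means (3 arrays each) and bars are standard errors of the fit. The differences from EncT run from -1.25 for Cd37 to 7.30 for Jchain. The 3 colours of a gene mostly lie close together, with wider gaps for Ighm, Cd83, Ms4a1 and Cd79b.

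The 2 genes called lower depended on the probe set that stood for them. Bcl11a, a zinc finger factor needed for early B cells, read 5.58, 5.43 and 5.47 on the arrays labelled iFoxA1Treg, against 6.0, 6.32 and 6.04 in EncT, 6.37, 6.58 and 6.62 in nFoxA1Treg, and 6.42, 6.44 and 6.44 in Treg. This is probe set 1447335_x_at, the brightest on average, and it was lower by 0.63 ± 0.10 (SE) against EncT (adjusted p = 6.39e-05). Of the 7 probe sets of Bcl11a, 4 were higher against EncT and 5 against each of the other T cell groups; 1419406_a_at, for example, had a log2 level of 9.21 ± 0.029 (SD, n = 3) on the arrays labelled iFoxA1Treg, where the other group means lay between -1.49 and 0.19.

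Cd37, a tetraspanin of mature B cells that T cells also make, gave a similar split. Its brightest probe set, 1419206_at, read 8.57, 8.71 and 8.69 on the arrays labelled iFoxA1Treg, 9.79, 10.02 and 9.91 in EncT, 9.74, 9.81 and 9.72 in nFoxA1Treg, and 9.85, 9.80 and 9.89 in Treg. It was lower without overlap, by 1.25 ± 0.063 against EncT (adjusted p = 2.83e-09). The second probe set, 1425736_at, was not called against EncT (adjusted p = 0.225) and was higher against Treg and nFoxA1Treg, by 1.16 and 1.40 on the log2 scale. In the fit of genes past the filter, the mean of both probe sets was not called against Treg (adjusted p = 0.634) and was higher against nFoxA1Treg (0.136, adjusted p = 0.0423).

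Over all 75 probe sets of the 37 genes, 61 were higher, 2 lower and 12 not called against EncT, where 22.1% of the 45037 probe sets on the array were higher and 27.4% lower. Against Treg 66 were higher, 2 lower and 7 not called (22.7% and 28% of all probe sets), and the counts against nFoxA1Treg were the same (22.4% and 28.6%). Ighm had 11 probe sets, 9 of them higher against EncT; immunoglobulin genes share sequence, so that some of these may read related transcripts. Syk, Ebf1, Fcer2a, Fcrl1, Pax5 and Pou2f2 each had 1 probe set that was not called against EncT beside those that were higher.

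**Figure D3:**
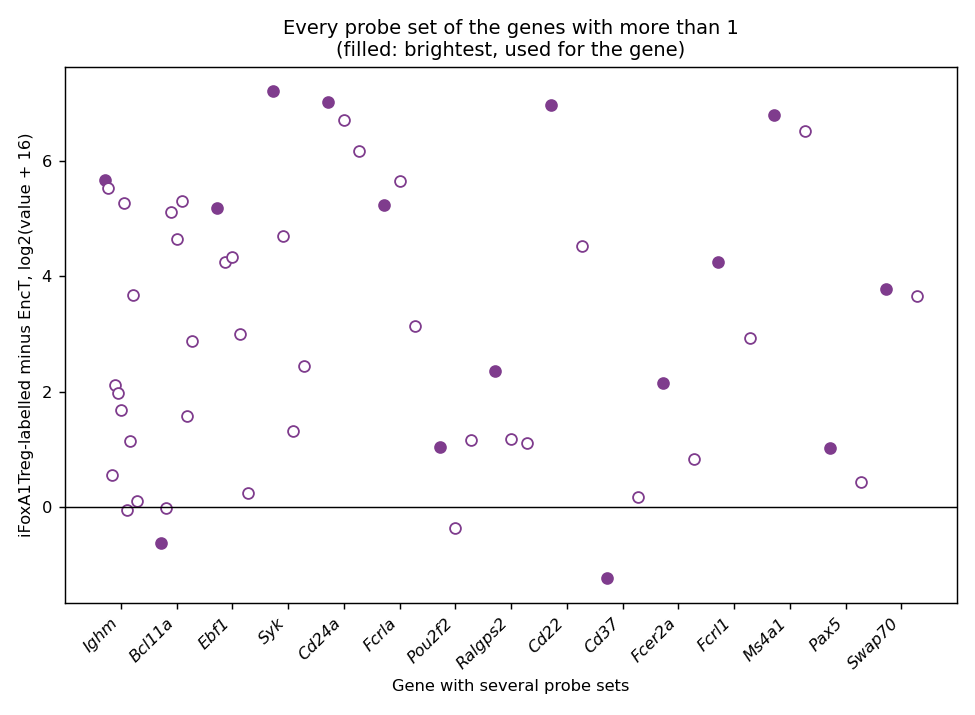
Difference of the arrays labelled iFoxA1Treg from EncT, on the log2(value + 16) scale, for every probe set of the 15 genes that have more than 1; each point is a probe set and the filled point is the brightest, which stands for the gene. Probe sets of Cd24a and Ms4a1 lie close together, whereas those of Bcl11a run from -0.63 to above 5.

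Beyond the 37 genes, the rest of the receptor pathway moved in both directions. Of 32 other pathway genes, 23 were higher and 6 lower against EncT, with a median difference of 0.85. In that fit, with no filter, 27.2% of all genes were higher and 29.1% lower. Dok3 (4.83), an adaptor that restrains the receptor, Rasgrp3 (4.56), a RAS activator of B cells, Fcgr2b (4.06), the inhibitory IgG receptor, and Prkcb (3.54), the protein kinase C that activates NF-kappaB, differed most. Fyn (-2.29), Shc1 (-1.63), Akt1 (-1.62) and Rac2 (-1.09), which T cells also use, were lower. Of 23 other B lineage genes, 21 were higher and 0 lower, with a median of 3.23, among them H2-Ob (6.68) and Ccr6 (5.08). The 2 not called were Ltb (0.17) and Irf4 (-0.08).

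Markers of B cell stages were mixed against EncT, where 27.2% of all genes were higher and 29.1% lower. Of 9 plasma cell genes, 7 were higher, including Mzb1 (7.86), a chaperone of immunoglobulin assembly, Igha (6.65), the heavy chain of IgA, and Sdc1 (2.92), which encodes CD138, whereas Prdm1 (-1.60), the plasma cell regulator that T cells also express, was lower. Of 10 precursor genes, 5 were higher, led by Cd93 (3.59), and Igll1 was lower (-0.32). The precursor genes Vpreb1 (-0.13, adjusted p = 0.413) and Rag2 (-0.10, adjusted p = 0.461) were not called. Of 8 marginal zone and B-1 cell genes, 5 were higher, led by Cd9 (4.81) and Dtx1 (4.50), and Cd5, which is also a T cell gene, was lower (-2.92). Of 5 germinal centre genes, Bcl6 (2.34) and Fas (1.02) were higher and Mybl1 (-1.81) was lower.

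Genes of several other cell types were also higher on the same arrays, and those of others were lower. The summed linear value of the 37 genes was 77500 to 81700 on the arrays labelled iFoxA1Treg and 1980 to 2640 on the other 9. The sum of 15 macrophage and monocyte markers was 17500 to 18000 there and 165 to 353 elsewhere. Of the 15, 11 were higher and 1 lower against EncT, where 27.2% of all genes were higher and 29.1% lower. The sum of 8 neutrophil markers was 33100 to 33200 there and 61.9 to 519 elsewhere, with all 8 higher. The sum of 10 T cell markers was 5070 to 5370 there and 17800 to 20000 elsewhere, with 9 of 10 lower and Trat1 not called. Sums were also higher there for plasmacytoid dendritic cells (4480 to 4800 against 538 to 584), erythroid cells, and fibroblasts and endothelium. They were lower for conventional dendritic cells (110 to 123 against 297 to 454), CD8 T and NK cells (1270 to 1330 against 1670 to 5080), neurons and glia. Mast cell and basophil sums overlapped with EncT. The part of these cell types in the differences of the B cell genes was not tested; in such bulk RNA, more cells of a type and more RNA per cell cannot be told apart.

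**Figure D4:**
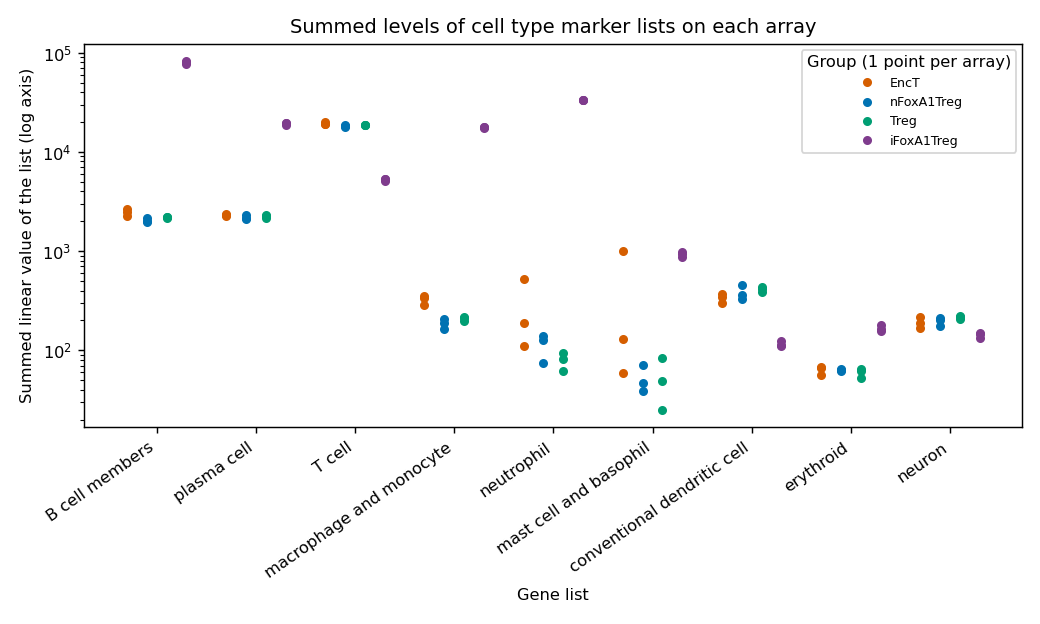
Summed linear normalized value of each marker list on each of the 12 arrays, on a log axis; 1 point per array, coloured by group. The B cell, plasma cell, macrophage, neutrophil and erythroid lists are highest on the 3 arrays labelled iFoxA1Treg. The T cell list (5070 to 5370 against 17800 to 20000), the conventional dendritic cell list and the neuron list are lowest there.

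Among the T cell groups themselves the B cell genes were dim, with a median level of 5.24 in EncT, 4.84 in nFoxA1Treg and 5.11 in Treg, and most of those called were higher in EncT. Against EncT, nFoxA1Treg had 6 of 27 tested genes lower (Ighm, Cd79b, Ms4a1, Fcrl1, Tnfrsf13b and Cd83) and 1 higher (Bcl11a), with 11.2% of all genes lower and 8.46% higher. With no filter the count was 4 lower and 1 higher of 37 (6.94% and 5.11% of all genes), and Cd79b and Fcrl1 were no longer called (adjusted p = 0.056 and 0.0658). Cd79b was below the filter level in all T cell groups and was among the 27 only through the arrays labelled iFoxA1Treg. Ms4a1 was among the 27 only through these arrays too. Its mean log2 level over the 9 arrays of the T cell groups was 3.85, below the filter level. The median difference of the 37 genes was -0.10, against -0.00012 over all genes. EncT had the highest mean of the T cell groups for 22 of the 37 genes (59.5%, against 39.6% of all genes), and nFoxA1Treg had the lowest for 22 (59.5%, against 30.6%).

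Ighm showed the clearest order. Its values, given above, put all 3 EncT arrays above all Treg arrays, and these above all nFoxA1Treg arrays, with EncT spread over more than a unit. It was lower than EncT by 1.46 ± 0.20 (SE) in nFoxA1Treg (adjusted p = 0.000603) and by 0.96 ± 0.20 in Treg (adjusted p = 0.00938). Treg and nFoxA1Treg, neighbours in this order, were not called different (adjusted p = 1, unadjusted p = 0.0221 from limma). Of the 11 probe sets, 2 were lower in both nFoxA1Treg and Treg, the brightest and 1427329_a_at, where 4.52% and 3.8% of all probe sets were lower. The mean over all probe sets was called in neither comparison (adjusted p = 0.49 and 0.551).

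Cd83 read 5.62, 5.90 and 6.05 in EncT, 4.76, 4.43 and 5.33 in nFoxA1Treg, and 5.04, 4.96 and 5.37 in Treg. All EncT arrays lay above the others. The difference of nFoxA1Treg was -1.02 ± 0.18 (SE, adjusted p = 0.00561 without the offset), and this gene alone kept its call in nFoxA1Treg under every alternative tried that gave a value (adjusted p up to 0.0361). In Treg it was at -0.74 ± 0.18 and missed the threshold (adjusted p = 0.0569), although it passed on the scale with the offset (adjusted p = 0.0169).

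Cd79b and Ms4a1, whose values are given above, were lower in nFoxA1Treg by 0.69 ± 0.17 and 0.80 ± 0.22 (adjusted p = 0.0319 and 0.0202; 0.056 and 0.0356 with no filter), but their arrays overlapped. In both, the third nFoxA1Treg array lay well above the other pair and above the lowest EncT array. Tnfrsf13b read 8.49, 8.72 and 8.59 in EncT, 8.35, 8.33 and 8.43 in nFoxA1Treg, and 8.39, 8.42 and 8.49 in Treg. The shift of -0.23 ± 0.067 in nFoxA1Treg was small, without overlap (adjusted p = 0.028). Fcrl1 read 5.47, 5.31 and 5.40 in EncT, 5.02, 5.22 and 5.25 in nFoxA1Treg, and 5.13, 5.17 and 5.03 in Treg. It was lower without overlap by 0.23 ± 0.088 in nFoxA1Treg (adjusted p = 0.0474) and by 0.28 ± 0.088 in Treg (adjusted p = 0.0231). The call in nFoxA1Treg was lost in 10 of 18 alternatives, among them no filter, log2(value + 16) and the replicate block, and that in Treg in 6 of 18. Bcl11a, in the probe set described above, was higher in nFoxA1Treg by 0.40 ± 0.10 (adjusted p = 0.016). The 6 other probe sets of Bcl11a were not called in this comparison. The second probe set of Cd37, 1425736_at, was lower than in EncT by 1.22 on the log2 scale in nFoxA1Treg (adjusted p = 0.00016) and by 0.98 in Treg (adjusted p = 0.000897). Its brightest probe set differed by -0.16 and -0.06 and was not called.

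The count of calls hung on single arrays. In nFoxA1Treg against EncT it fell from 7 to 3 without EncT replicate 3 or without nFoxA1Treg replicate 1, and to 2 without nFoxA1Treg replicate 2. The calls of Cd79b, Fcrl1, Bcl11a and Tnfrsf13b were each lost in 4 of the 6 fits that left out an array, and that of Ms4a1 in 3, with an adjusted p of up to 0.188 for Fcrl1. Without the 3 arrays labelled iFoxA1Treg, which share the estimate of spread, 4 genes were called (1 higher, 3 lower). That fit also set the filter anew on the 9 other arrays, so part of the fall is genes no longer tested. Over these 9 arrays Cd79b and Ms4a1 had mean log2 levels of 2.15 and 3.85, below the filter level of 4.05. Fcrl1 was tested there and lost its call.

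In Treg against EncT, Ighm and Fcrl1 were lower and 0 of the 27 tested genes were higher, with 10.3% of all genes lower and 6.23% higher; the same 2 were lower of all 37 with no filter, where 6.26% of all genes were lower and 3.58% higher. Without EncT replicate 3 or Treg replicate 3 the count was 1, and without EncT replicate 1 it was 4. Faim3 read 4.93, 5.48 and 5.49 in EncT and 5.92, 5.52 and 5.79 in Treg; the arrays did not overlap, and the difference of 0.45 ± 0.17 was not called (adjusted p = 0.103). Cxcr5 differed by -0.55 ± 0.15 in Treg and by -0.54 ± 0.15 in nFoxA1Treg, without overlap in either. It was not called on log2 values with no offset (adjusted p = 0.598 and 0.178) and passed on the scale with the offset (adjusted p = 0.0264 and 0.024).

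Between nFoxA1Treg and Treg, limma called 0 of the 27 tested genes, as it called 0 of 12609 genes higher (0%) and 1 lower (0.00793%). An unadjusted p under 0.05 was found for 2 of the 27 genes, Ighm and Cd79b (7.41%, against 3.71% of all genes), each with an adjusted p of 1. Cd79b was among the 27 only through the arrays labelled iFoxA1Treg. With no filter the count was 3 of 37 (8.11%, against 3.96% of all genes). The difference of Ighm was -0.50 ± 0.20.

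**Figure D5:**
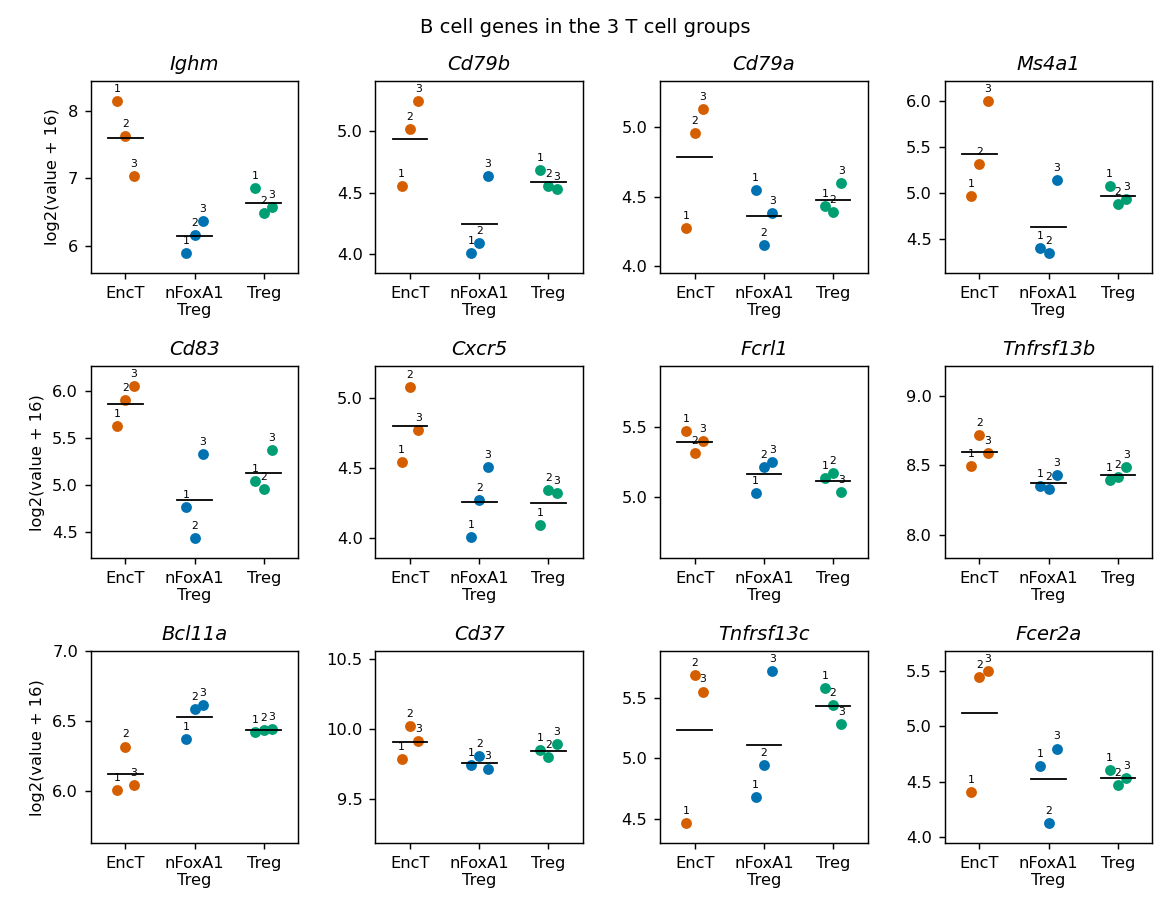
Levels of 12 B cell genes, as log2(value + 16), on the 9 arrays of the T cell groups; each point is an array, numbered by replicate, the line is the group mean, and each panel has its own axis. EncT lies above both other groups without overlap for Ighm, Cd83, Cxcr5 and Fcrl1, and EncT replicate 1 lies far below the other EncT arrays for Tnfrsf13c and Fcer2a.

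The arrays of one T cell group did not move as 1 for these genes. EncT replicate 1 had the lowest EncT value of Cd79a, Cd79b, Ms4a1, Fcer2a and Tnfrsf13c and the highest of Ighm. In nFoxA1Treg, replicate 3 had a median of 5.14 over the 37 genes, against 4.68 and 4.70 in the other pair, and it held the highest of the 9 values for 7 genes, where replicate 1 held 0 and replicate 2 held 1. The sums of other cell types' markers also varied. Mast cell and basophil markers summed to 992 on EncT replicate 1, and to 130 and 59.5 on the others of that group. Neutrophil markers summed to 519 on that array and to 111 and 188 on the others. Macrophage markers summed to 285 to 353 in EncT, 165 to 207 in nFoxA1Treg and 197 to 214 in Treg, so that EncT was highest here too.

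Genes of the pathway outside the list were also more often lower than higher against EncT. Of 30 tested, 9 were lower and 1 higher in nFoxA1Treg (all genes: 11.2% lower, 8.46% higher). In Treg 9 were lower and 1 higher (all genes: 10.3% lower, 6.23% higher). The median log2 difference of the 30, with no offset, was -0.12 in nFoxA1Treg and -0.14 in Treg. Over the 32 on the array, on the scale with the offset, it was -0.16 and -0.090. With no filter, 4 and 6 of 32 were lower, against 6.94% and 6.26% of all genes. The comparisons share the EncT arrays. Dapp1, an adaptor that binds phosphoinositides, was the gene that was higher, by 0.29 in nFoxA1Treg and 0.35 in Treg. Ptpn6, which encodes the phosphatase SHP-1, was lower by 0.50 and 0.44, Sos1 by 0.49 and 0.51, and Pik3ap1, an adaptor of PI3 kinase, by 0.48 and 0.85. Vav3, Pik3cd, Prkcd and Malt1 were lower in both, Prkcb and Pik3r5 in nFoxA1Treg, and Dok3 and Itpr2 in Treg.

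Of 18 other B lineage genes tested, 6 were lower and 1 higher in nFoxA1Treg, and 5 were lower and 0 higher in Treg. Over all genes, 11.2% were lower and 8.46% higher in nFoxA1Treg, and 10.3% and 6.23% in Treg. The median over the 23 on the array was -0.23 in nFoxA1Treg and -0.20 in Treg. With no filter, 4 and 5 of the 23 were lower, against 6.94% and 6.26% of all genes. Bcl6, a repressor shared by germinal centre B cells and follicular helper T cells, was lower by 0.57 and 0.61. Spi1, which encodes PU.1, and H2-Oa were lower by 0.33 and 0.45 in nFoxA1Treg and by 0.41 and 0.31 in Treg, and Plac8 by 0.29 and 0.28. Ltb and Btla were lower in nFoxA1Treg, and Cnr2 was higher there by 0.30. Dok3 was lower in Treg, and H2-Ob was called lower there only in the fit with no filter. Of the stage markers, Prdm1 was lower by 0.55 and 0.61, S1pr2 by 0.30 and 0.38 and Cd1d1 by 0.33 and 0.19, and Sox4 was higher in nFoxA1Treg by 0.30. Lyz2, Fcgr3 and Cd14, markers of macrophages and monocytes, were lower in both groups, Lyz2 by 1.5 in nFoxA1Treg and 1.23 in Treg.

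A few further markers of other cells were called among the T cell groups. In both groups Klrd1, an NK cell receptor, was lower than in EncT, by 0.86 in nFoxA1Treg and 0.88 in Treg. In nFoxA1Treg, Cpa3, a mast cell protease, was lower by 2.06 and Trat1 by 0.66, and Hba-a2 was higher by 0.33. In Treg, Mmp9 was lower by 1.48 and Mbp by 0.26, and Col1a2 was higher by 0.47. In the fit with no filter alone, Cd9, Tyrobp and Erg were called lower in nFoxA1Treg, Mpeg1 and Kit were called lower and Col3a1 higher in Treg, and Erg was called lower in nFoxA1Treg than in Treg. The part of these cells in the values of the B cell genes was not tested.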

How the data were processed

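Total RNA of 12 samples was measured on Affymetrix Mouse430_2 arrays. The authors' deposited table holds log2 values of 45037 probe sets; PLIER, which summarises probes into a probe set value, is named per the submitters' processing notes, but the sources used here give neither its version nor any normalization. Number and quality of arrays, 3 per group, limit the precision.

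The B cell genes, the other gene lists and the tests were chosen with earlier results of these data known. Of the probe sets, 34945 had 1 gene symbol, 932 several and 9160 none; Faim3 was matched as Fcmr. Quantile normalization was applied because array medians spanned 0.202, above a tolerance of 0.2. The dimmest probe sets were dropped and the upper 60% by mean were retained (log2 level 4.05), 12609 genes in all, while members below this level, and all members in the comparisons of the arrays labelled iFoxA1Treg, were tested with no filter on 18193 genes. limma 3.58.1 in R 4.3.3 fitted the 4 group means together on 12 arrays (8 residual degrees of freedom, eBayes with an intensity trend), with two-sided p-values. Levels and differences on log2(value + 16) come from a separate fit with no filter, and ± after a difference is its standard error. All list members are named or counted; of other lists, up to 4 rises and 4 falls and every gene called among the T cell groups are named. The fit was tested on simulated data. Alternatives covered normalization, filter, offset, probe set choice, weights, trend, samples and the replicate number as a block. Replicate numbers were not used as pairs because the labels do not say that they pair the arrays. Correlations of same-numbered arrays ran from -0.164 to 0.166 and cannot settle whether they do.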

Additional observations from a re-analysis of the deposited data

How the results depend on the processing

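In the comparisons of the arrays labelled iFoxA1Treg, fitted with no filter, 32 to 36 of the B cell genes were called in each comparison under 16 other settings, chosen after seeing the data, against 36. Single genes kept direction and call in 565 of 574 values against EncT, 570 of 574 against Treg and 563 of 574 against nFoxA1Treg. The exceptions were Cxcr5 against EncT and Cd180 against nFoxA1Treg, which lost the call, and genes whose probe sets disagree: Bcl11a turned with the mean of all probe sets, Bcl11a and Ighm lost the call or turned with no _s_at, _x_at or _a_at probe sets, and Cd37 lost the call against Treg and, among genes past the filter, reversed to 0.136 (log2) against nFoxA1Treg with the mean of all probe sets. For nFoxA1Treg against EncT the 7 calls became 4 with the mean of all probe sets, 15 with array weights, 2 with the arrays of the 2 groups only and 4 without the arrays labelled iFoxA1Treg; leaving out 1 array gave 2 to 9. For Treg against EncT the 2 calls became 4 with the upper 40% of probe sets, 4 on log2(value + 16) over the same genes (3 with no filter), 1 with the mean of all probe sets, 1 with no _s_at, _x_at or _a_at probe sets, 10 with array weights and 1 without the arrays labelled iFoxA1Treg; leaving out 1 array gave 1 to 4. The last group of settings tests fewer genes or samples; the cause of the other moves was not tested. nFoxA1Treg against Treg had 0 genes called throughout. Of the 75 single probe sets, limma called 1 higher there, 1426552_a_at of Bcl11a (adjusted p = 0.00407), where 0.00444% of all probe sets were higher. Its log2 means were 1.47 in nFoxA1Treg and -8.19 in Treg, both in the dim range. The labels do not say whether replicate numbers pair the arrays, and the correlations of same-numbered arrays cannot settle it. With the replicate block the counts were 36 in each comparison of the arrays labelled iFoxA1Treg with no filter, 6 for nFoxA1Treg against EncT, 3 for Treg against EncT and 0 for nFoxA1Treg against Treg. Dim signal limits the comparisons among T cell groups: the median SD within a group was 1.65 (log2) for genes with a mean below 2, and 0.063 for those above 8.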
